A study of Mus musculus with 8 samples.

Results

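The 9 genes described here encode the core of the rod phototransduction cascade. They are the transducin subunits Gnat1, Gnb1 and Gngt1, the phosphodiesterase subunits Pde6a, Pde6b and Pde6g, the channel subunits Cnga1 and Cngb1, and the rod arrestin Sag. They were chosen by name, and each of the 9 had 1 row among the 17500 genes of the deposited count table. Whole retinas of 6-month-old mice on a C57BL/6J background were sequenced after poly(A) selection, with a single library for each mouse, in 4 control mice (M833, M894, M896 and M898) and 4 Rbfox2-/- mice (M893, M901, M902 and M909), which the sample labels call Rbfox2 KD, and values per mouse are given in these orders throughout. The Rbfox2-/- mice were Rbfox2 fl/fl animals that also carried a Cre transgene activated by tamoxifen, and the controls were heterozygous Rbfox2 fl/+ animals. In the retina, this Cre line was chosen for reporter expression in ganglion, amacrine and probably horizontal cells, and the study's description of it does not name rods. The labels give tamoxifen with 4 months for all 8 mice. In the study, 4 months is the time since the deletion was induced, and the dosing itself lasted a few days. The methods describe the drug for adult fl/fl animals with Cre, mention a vehicle, and do not say whether the controls carried Cre, so that the deletion, the transgene and possibly the drug cannot be told apart. Rbfox2 is an RNA-binding protein that controls alternative splicing, and the comparison was made to find the genes that depend on it in the retina.

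In a rod, light-activated visual pigment switches on transducin, a G protein of an alpha, a beta and a gamma subunit. The transducin alpha subunit then relieves the inhibition of phosphodiesterase 6, which breaks down cyclic GMP, and the cyclic nucleotide-gated channel of the outer segment closes. Arrestin ends the signal by binding the phosphorylated pigment. Rods are the most numerous cells of the mouse retina, so these transcripts are among the most abundant in whole-retina RNA, and loss-of-function mutations in several of the genes cause night blindness or retinal degeneration.

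Control libraries held 174224661 to 211283591 counts on genes, and Rbfox2-/- libraries 160630226 to 195100610. Rbfox2 itself was at 144 to 157 CPM (counts scaled to the library size after TMM normalization) in controls and at 53.6 to 59.4 CPM in Rbfox2-/- retinas. M901 and M902 stood apart from the other 6 mice on the first principal component, which held 40.5% of the variance, and M909 on the second, with 19.2%. M901 and M902 also had 277506 and 275967 counts of Xist, which is transcribed from the inactive X chromosome of female cells, against 312 to 426 in the other mice. The labels give no sex, and results are given below with and without these 2 libraries. All 7 rod markers that were looked up (Gnat1, Pde6a, Pde6b, Cnga1, Sag, Nrl and Nr2e3) were detected in every library.

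Levels between genes were compared only per length, as the deposited FPKM values (fragments scaled to gene length and library size). By mean FPKM over the 8 mice, the members ranked between 2 and 139 of 17500 genes. Gnat1, the rod transducin alpha subunit, was the highest of the 9, with 6275 ± 247 FPKM (SD, n = 4) in controls. Sag followed with 2333 ± 164 FPKM (SD, n = 4), and Gnb1, the transducin beta subunit that other retinal neurons also express, had 2138 ± 78.3 FPKM. Pde6g, the small inhibitory subunit of the phosphodiesterase, was at 2084 ± 53.9 FPKM. The control ranges of Sag and Gnb1 overlapped, but Sag was above Gnb1 within each control mouse. The lowest control of Sag (2168 FPKM) was above the highest of Pde6g (2138 FPKM). The ranges of Gnb1 and Pde6g overlapped, and Pde6g was the higher in M898, so the order of this pair is not fixed by 4 mice. A second tier held Gngt1, the transducin gamma subunit, with 897 ± 34.8 FPKM, Pde6b with 845 ± 14.3 FPKM and Pde6a with 802 ± 45.1 FPKM, the latter both catalytic subunits of the phosphodiesterase. Gngt1 lay above Pde6b in every pairing of controls (870.7 to 948 against 834 to 864 FPKM). The control ranges of Pde6b and Pde6a overlapped, but Pde6b was above Pde6a within each control mouse, in M833 by little (864 against 862 FPKM). The channel subunits were lowest, with 319.6 ± 14.0 FPKM for Cnga1 and 212 ± 8.74 FPKM for Cngb1, and their control ranges were apart. FPKM divides by the gene length the authors used, which was between 899 bases (Pde6g) and 6191 bases (Cngb1) and was obtained here from the ratio of counts to FPKM.

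**Figure D1:**
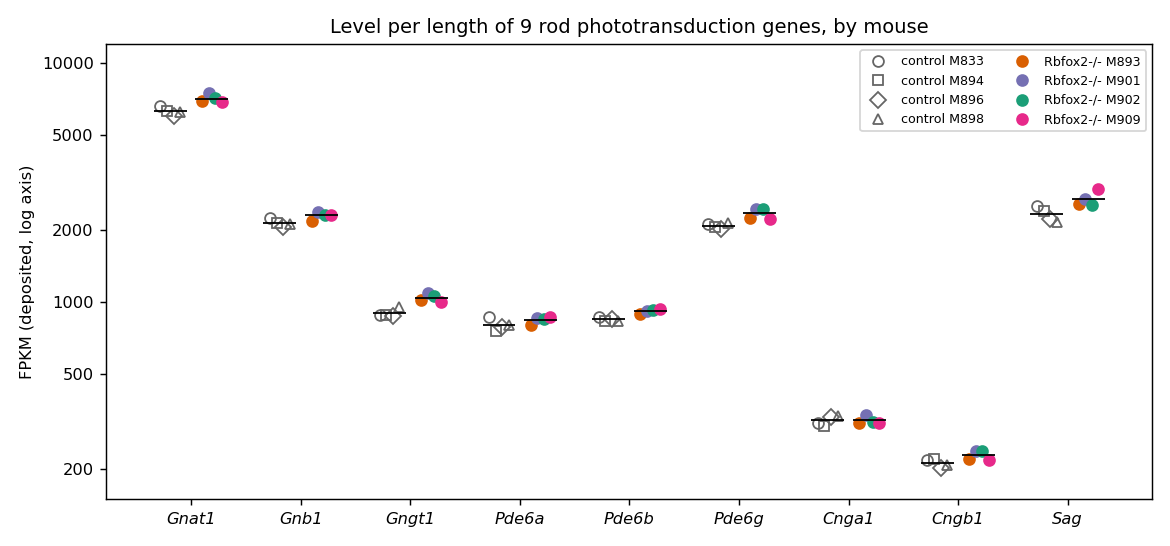
Deposited FPKM of the 9 genes on a log axis, with 1 point per mouse (open grey, controls; filled, Rbfox2-/-) and a line at each group mean. Gnat1 is at 5981 to 7479 FPKM in the 8 mice and Cngb1 at 202 to 239 FPKM, and the range over the 9 genes is much wider than the distance between the groups of any of them.

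As a group, the members were slightly more abundant in Rbfox2-/- retinas. Together they held 3.69%, 3.51%, 3.40% and 3.49% of all counts in the 4 controls, and 3.76%, 4.05%, 3.91% and 3.90% in the 4 Rbfox2-/- mice. Every Rbfox2-/- library was above every control by total counts, but with the library sizes after TMM normalization M893, at 3.73%, was below the control M833, at 3.75%. The log2 fold changes of Rbfox2-/- against control, fitted with edgeR's quasi-likelihood test across all 16797 genes that passed the count filter, had a median of 0.13 over the 9 members and of 0.0016 over all genes tested. All 9 were above 0, as were 50.7% of all genes tested, but that of Cnga1 turned negative when libraries were scaled by total counts only. By this edgeR test, 0 of the 9 members passed a Benjamini-Hochberg false discovery rate (FDR) of 0.05, which 11 genes or 0.0655% of those tested did. At an unadjusted p under 0.05, where 13.3% of all genes tested lay, 7 of the 9 members were higher and 0 lower, against 6.42% of all genes higher and 6.87% lower. At an unadjusted p under 0.01, 4 members were higher, against 1.94% of genes. For 4 members the groups did not overlap, each time with the Rbfox2-/- mice higher, and the groups did not overlap for 7.03% of genes, with the Rbfox2-/- mice higher for 3.64%. With DESeq2, which called 2.8% of genes at an FDR under 0.05 and 1.41% as higher, 5 members passed, all higher (Gngt1, Gnat1, Pde6g, Pde6b and Sag). With edgeR's likelihood ratio test, which called 0.976% and 0.476% as higher, Gngt1 alone passed, and with limma-voom none did. In whole-retina RNA, a different number of rods and a different amount of RNA per rod cannot be told apart.

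Of the 9 estimates, that of the transducin gamma subunit was the highest and had the smallest p. Gngt1 (chromosome 6 of GRCm38, 3993792 to 3997436, plus strand) encodes the gamma subunit that anchors transducin to the disc membrane. It was at 863, 843, 831 and 898.2 CPM in the controls and at 975, 1058, 1036 and 971 CPM in the Rbfox2-/- mice. The groups did not overlap, and the gap between the highest control and the lowest Rbfox2-/- mouse was wider than the spread of the controls. The Rbfox2-/- mean was 17.6% higher (95% interval 9.77% to 26.0%), or 0.23 on the log2 scale (standard error, SE, 0.045, unadjusted p = 0.000387 and adjusted p = 0.104 by edgeR's quasi-likelihood test, Benjamini-Hochberg adjusted over all genes). Its DESeq2 adjusted p was 6.0e-05, and over all 18 alternative settings the adjusted p lay between 6.0e-05 and 0.584.

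Gnat1 (chromosome 9, 107674474 to 107679712, minus strand) encodes the alpha subunit, which binds GTP and carries the signal to the phosphodiesterase. It was at 14751, 13741, 13081 and 13543 CPM in the controls and at 15115, 16714, 15927 and 15290 CPM in the Rbfox2-/- mice. No Rbfox2-/- mouse was within the control range, although M893 was close to M833, the highest control. The Rbfox2-/- mean was 14.4% higher (95% interval 4.81% to 24.8%), or 0.19 on the log2 scale (SE 0.057, edgeR adjusted p = 0.236). Gnb1 (chromosome 4, 155491361 to 155559269, plus strand), the beta subunit, was at 7154, 6619, 6399 and 6530 CPM in the controls and at 6804, 7585, 7360 and 7333 CPM in the Rbfox2-/- mice. M893 lay within the control range, and the other 3 were above it. Its log2 fold change was 0.12 (SE 0.054, edgeR adjusted p = 0.372). The intervals of the 3 subunits overlapped.

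**Figure D2:**
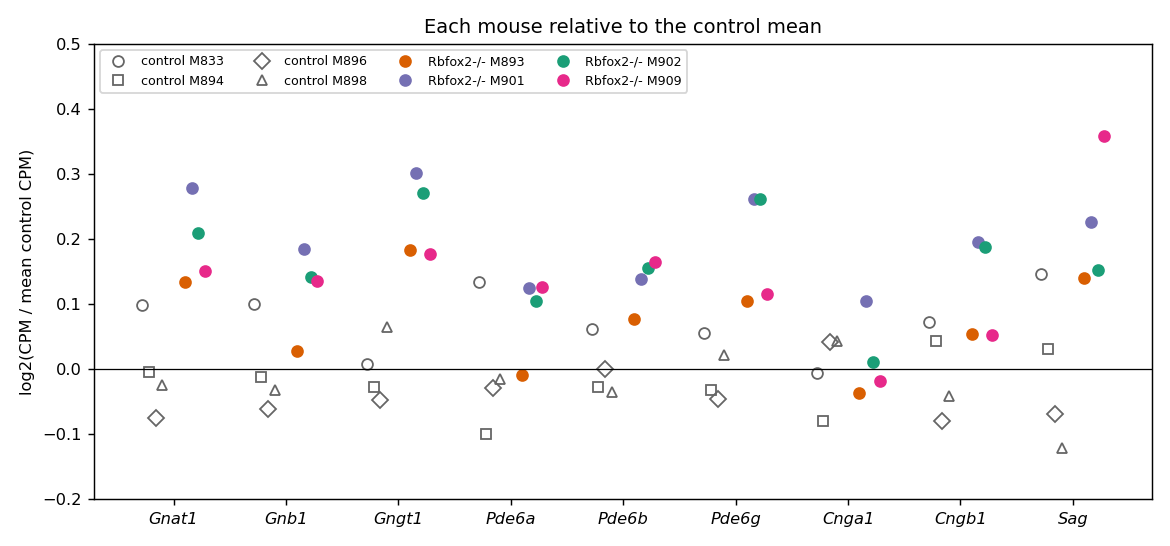
The log2 ratio of each mouse's CPM to the mean CPM of the 4 controls, for each of the 9 genes (open grey, controls; filled, Rbfox2-/-). For Gnat1, Gngt1, Pde6b and Pde6g all 4 Rbfox2-/- mice are above all controls, M901 is the highest mouse for 6 genes, and M909 is the highest for Sag, at 0.36.

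Among the phosphodiesterase subunits, the inhibitory gamma subunit had the largest difference. Pde6g (chromosome 11, 120447605 to 120453500, minus strand) was at 1935, 1822, 1804 and 1890.4 CPM in the controls and at 2002, 2232, 2232 and 2019 CPM in the Rbfox2-/- mice. The groups were apart, and M901 and M902 were well above the other 2 Rbfox2-/- mice. The Rbfox2-/- mean was 13.9% higher (95% interval 5.12% to 23.4%), or 0.19 on the log2 scale (SE 0.052, edgeR adjusted p = 0.219), which was 0.11 without M901 and M902. Pde6b (chromosome 5, 108388391 to 108432397, plus strand), a catalytic subunit, was at 2471, 2322, 2366 and 2310 CPM in the controls and at 2498, 2605, 2635 and 2653 CPM in the Rbfox2-/- mice. The groups did not overlap here either, with M893 just above M833. Its log2 fold change was 0.13 (SE 0.042, edgeR adjusted p = 0.257), and 0.12 without M901 and M902. Pde6a (chromosome 18, 61220315 to 61289924, plus strand), the other catalytic subunit, was at 3672, 3123, 3281 and 3313 CPM in the controls and at 3326, 3650, 3601 and 3652 CPM in the Rbfox2-/- mice. Here M833, a control, was the highest of the 8, and all Rbfox2-/- mice were inside the control range. The difference was 6.26% with a 95% interval of -2.92% to 16.3%, which holds both 0 and the estimate for Pde6b, 9.74%. On the log2 scale it was 0.088, against 0.13 without M833 (unadjusted p = 0.0325 by edgeR), 0.056 without M894 and 0.057 without M901 and M902.

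The channel subunits had the lowest levels per length, and neither had groups that were apart. Cngb1 (chromosome 8, 95239045 to 95306585, minus strand), the modulatory subunit, was at 1374, 1346, 1236 and 1270.1 CPM in the controls and at 1357, 1497, 1489 and 1355 CPM in the Rbfox2-/- mice. Only M901 and M902 were above the control range. The log2 fold change of Cngb1 was 0.12 (SE 0.053, edgeR adjusted p = 0.363) and 0.051 without M901 and M902. Cnga1 (chromosome 5, 72603696 to 72644275, minus strand), the subunit that can form a channel by itself, was at 866, 822, 895 and 896.1 CPM in the controls and at 848, 935, 876 and 859 CPM in the Rbfox2-/- mice. Its groups overlapped almost completely, and its estimate, 1.11% with a 95% interval of -5.84% to 8.58%, was the lowest of the 9. That interval overlapped those of all other members except Gngt1, which begins at 9.77%. Cnga1 was also the member whose values followed the others least, with a correlation of 0.277 over the 8 mice between its log2 CPM and the mean of the other members, against 0.759 to 0.975 for the other 8 genes. These correlations are descriptions over libraries that share their depth and normalization.

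Sag (chromosome 1, 87803680 to 87845158, plus strand), the rod arrestin, had the widest spread between mice relative to its mean. It was at 4413, 4073, 3798 and 3664 CPM in the controls and at 4392, 4665, 4431 and 5109 CPM in the Rbfox2-/- mice. M893 was just inside the control range, and M909 was the highest mouse by a clear margin. On the FPKM scale, which uses no TMM factor, the lowest Rbfox2-/- mouse (2548 FPKM) was just above the highest control (2530.4 FPKM). The Rbfox2-/- mean was 16.6% higher (95% interval 4.48% to 30.2%), or 0.22 on the log2 scale (SE 0.071, edgeR adjusted p = 0.264). Sag was the only member whose log2 fold change was larger without M901 and M902, at 0.25, and it was 0.17 without M909.

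Without M901 and M902, the libraries with high Xist counts, the log2 fold changes of the other 8 members were smaller, and their median with Sag included was 0.11. At an unadjusted p under 0.05, 4 members were then higher (Gnat1, Gngt1, Pde6b and Sag), where 3.55% of genes were. With 1 surrogate variable in the model, which separated M901 and M902 from the rest, Gngt1 and Sag were, where 3.88% of genes were. No member had an FDR under 0.05 in either case.

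**Figure D3:**
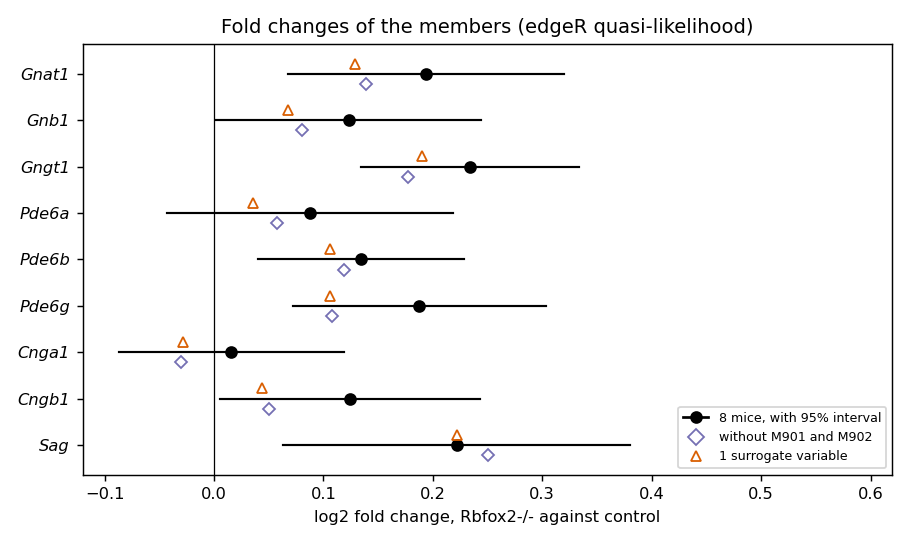
Log2 fold changes of the 9 genes in Rbfox2-/- against control retinas from edgeR's quasi-likelihood fit, with 95% intervals (black), and the estimates without M901 and M902 (diamonds) or with 1 surrogate variable (triangles). The estimates run from 0.02 for Cnga1 to 0.23 for Gngt1, the intervals of Pde6a and Cnga1 include 0, and Sag alone is as large or larger in both alternatives.

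Ratios between members within a mouse do not depend on library size, and 6 of them were compared. The transcript ratio of Gnb1 to Gnat1 was nearly constant in controls, with 0.485, 0.482, 0.489 and 0.482 counts of Gnb1 per count of Gnat1 in the 4 mice. In the Rbfox2-/- mice it was 0.450, 0.454, 0.462 and 0.4796. All Rbfox2-/- mice were below all controls, M909 by little, with a log2 difference of -0.071 (p = 0.0286 by a two-sided exact permutation test, the minimum for groups of 4, and adjusted p = 0.171 over the 6 ratios). Other retinal neurons also express Gnb1, so in whole-retina RNA this ratio does not give the balance of the subunits within rods. For Pde6g to Pde6a the log2 difference was 0.097, with 3 of 4 Rbfox2-/- mice above the controls (exact permutation p = 0.0857, adjusted p = 0.257). For Cngb1 to Cnga1 it was 0.11, with 1 of 4 above (exact permutation p = 0.229, adjusted p = 0.386). The ratios of Gngt1 to Gnat1, Pde6b to Pde6a and Sag to Gnat1 differed by 0.040, 0.045 and 0.029 on the log2 scale (exact permutation p = 0.371, 0.257 and 0.743, adjusted p = 0.446, 0.386 and 0.743), each with group ranges that overlapped. The sign of the last turned without M898 (-0.0028) or without M909 (-0.032). On the per-length scale, controls had 0.143 ± 0.00758 FPKM of Gngt1 and 0.341 ± 0.00242 FPKM of Gnb1 per FPKM of Gnat1 (SD, n = 4), although the subunits meet in equal numbers in the protein. Per FPKM of Pde6a they had 1.06 ± 0.0453 FPKM of Pde6b and 2.60 ± 0.115 FPKM of Pde6g.

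**Figure D4:**
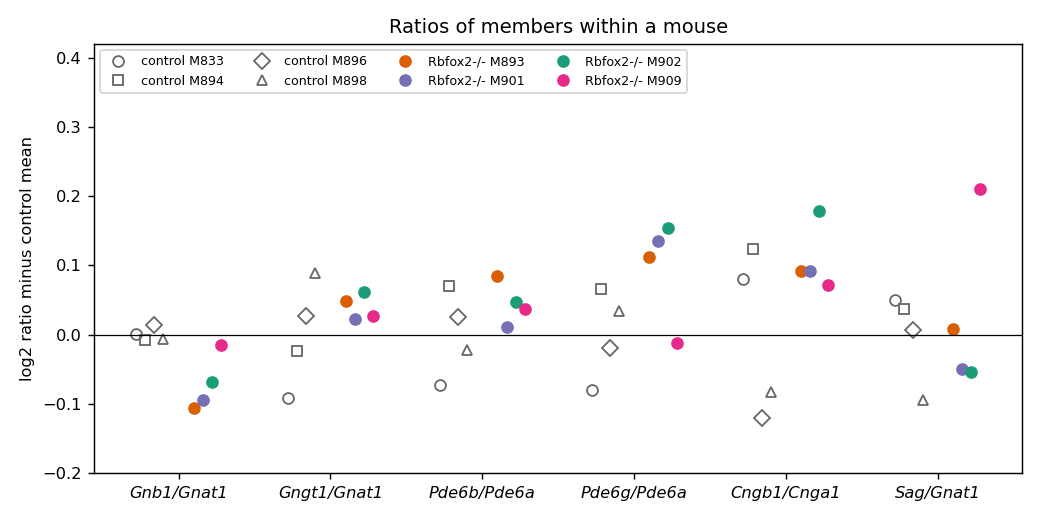
Log2 count ratios between members within each mouse, with the control mean of each ratio set to 0 (open grey, controls; filled, Rbfox2-/-). The Gnb1 to Gnat1 ratio has the tightest controls and is lower in all 4 Rbfox2-/- mice, and M909, with 0.334 counts of Sag per count of Gnat1, is above all other mice for that ratio.

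Since Rbfox proteins bind RNA at UGCAUG elements, mostly in introns near regulated exons and in 3' untranslated regions, the letters TGCATG were looked up in 1 GENCODE M21 transcript per member. Of the 9 members, 1 (Cngb1) had them in the 3' untranslated region, compared with 32.1% of 14739 genes, and 2 (Pde6b and Cngb1) in the coding sequence, compared with 30.8% of 14925 genes. The 3' untranslated regions of the members ran from 135 bases (Sag) to 2149 bases (Cngb1), against a median of 953 bases over the genes compared. These shares were not adjusted for length, and introns were not searched. The 30-base windows around the matches in the transcripts are shown with the element in capitals, because Rbfox2 is the protein whose gene was targeted. A match of letters is not a measured binding site.
Pde6b, coding sequence, transcript position 309: tctgcaccatccTGCATGccgaccgctgca
Pde6b, coding sequence, transcript position 2194: catgatgatgacTGCATGtgacctgtctgc
Pde6g, 5' untranslated region, transcript position 90: ccagtgcttgccTGCATGaggacaccagcc
Cngb1, coding sequence, transcript position 2976: tactaccgcagcTGCATGgacagcacagtg
Cngb1, 3' untranslated region, transcript position 4043: ggcggagtgaggTGCATGaagcgcccagat
Gnat1, Gnb1, Gngt1, Pde6a, Cnga1 and Sag had no TGCATG in the transcript used. A relation between the element and the fold changes was not tested.

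Rod genes are switched on together by the photoreceptor transcription factors CRX, whose sites often hold TAATCC, and NRL, whose sites often hold TGCTGA. The 250 bases before the RefSeq start site (GRCm38.p6) were available for 6 members, Gnb1, Gngt1, Pde6b, Cnga1, Cngb1 and Sag. On either strand, TAATCC was found in 4 of these 6 windows, compared with 6.25% of 32851 windows of all genes, and TGCTGA in 2 of 6, compared with 16.1%. One of the 4 is Gngt1, whose GENCODE M21 gene starts farther upstream than its RefSeq start, so that 216 of the 250 bases of its window are exon of a coding transcript. The other 5 windows hold 0 such bases. The window of Gnb1 held neither, and that of Pde6b held TGCTGA but not TAATCC. The windows of the channel pair, to set Cnga1 beside its partner, and of Sag, the one with both motifs, are printed 5' to 3' on the strand of the gene, with both motifs or their reverse complements in capitals.
Cnga1, chr5:72642753-72643002, minus strand: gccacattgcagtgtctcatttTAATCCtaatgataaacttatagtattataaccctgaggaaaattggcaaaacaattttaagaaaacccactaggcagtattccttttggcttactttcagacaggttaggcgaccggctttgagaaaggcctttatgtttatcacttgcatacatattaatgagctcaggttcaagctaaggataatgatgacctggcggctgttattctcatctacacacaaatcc
Cngb1, chr8:95306586-95306835, minus strand: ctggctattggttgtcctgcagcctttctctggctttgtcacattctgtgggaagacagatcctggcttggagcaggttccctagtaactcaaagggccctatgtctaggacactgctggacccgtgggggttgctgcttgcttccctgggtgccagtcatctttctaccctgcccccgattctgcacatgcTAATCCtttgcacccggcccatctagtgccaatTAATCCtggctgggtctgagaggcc
Sag, chr1:87803430-87803679, plus strand: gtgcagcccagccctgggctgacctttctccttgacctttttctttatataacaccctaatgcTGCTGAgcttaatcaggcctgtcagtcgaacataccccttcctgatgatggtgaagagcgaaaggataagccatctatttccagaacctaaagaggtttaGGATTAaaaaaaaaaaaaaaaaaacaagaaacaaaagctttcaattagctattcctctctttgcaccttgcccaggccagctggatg
The Gngt1 match begins at -44 from its RefSeq start, within this stretch, and by GENCODE M21 it lies inside the exon, not upstream of the gene.
Gngt1, chr6:3993952-3993981, plus strand: tcatattaggggGGATTAtgaagaagcttt
Counted from the start site, the matches begin at -58 and -25 in Cngb1, at -87 for TAATCC and -187 for TGCTGA in Sag, and at -228 in Cnga1. These are matches of letters in a fixed window and no measure of binding.

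Genes that surround the cascade were compared as 3 lists, and Grk1 is in both the recovery list and the cone list. Of all genes tested, 6.42% were higher and 6.87% lower at an unadjusted p under 0.05 by edgeR, and 2.8% had a DESeq2 FDR under 0.05. Of 13 genes of recovery and regulation, such as the kinases, guanylate cyclases and calcium sensors that restore the dark state, 0 had an FDR under 0.05 by the edgeR test, and 4 were higher and 0 lower at an unadjusted p under 0.05, with a median log2 fold change of 0.053. The values ran from -0.14 for Gnb5, which forms the GTPase-accelerating complex with Rgs9, to 0.18 for Gucy2f, a photoreceptor guanylate cyclase. Rgs9 itself had -0.11 (SE 0.053, edgeR adjusted p = 0.403), opposite in sign to the estimates of the transducin subunits. With DESeq2, 1 of the 13 had an FDR under 0.05. It was Pde6d, a prenyl-binding protein that carries lipid-modified proteins to the outer segment, at 101 to 106 CPM in controls and 108 to 119 CPM in Rbfox2-/- retinas.

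Of 11 cone phototransduction genes, 0 had an FDR under 0.05 by the edgeR test, 4 were higher and 1 lower at an unadjusted p under 0.05, and the median log2 fold change was 0.13. Opn1sw, the short-wavelength cone opsin, was at 333 to 388 CPM in controls and 384 to 474 CPM in Rbfox2-/- retinas and had the highest estimate, 0.26 on the log2 scale (SE 0.068). Opn1mw, the middle-wavelength opsin, had the lowest, -0.23 (SE 0.094). Gngt2, the cone counterpart of Gngt1, was at 40.2 to 43.7 CPM in controls and at 50.0 to 52.1 CPM in Rbfox2-/- retinas, so that its groups did not overlap (log2 fold change 0.26, SE 0.038, edgeR adjusted p = 0.0568). With DESeq2, 2 of the 11 had an FDR under 0.05, Gngt2 (2.8e-07) and Opn1sw (0.0112). Rgs9, Pde6d, Gngt2 and Nrl, like Pcp2 and Glul, were picked out after their values were seen. Of 14 other rod genes, 0 had an FDR under 0.05, and 2 were higher and 0 lower at an unadjusted p under 0.05, with a median of 0.047. With DESeq2, 0 of these 14 had an FDR under 0.05. They ranged from -0.23 for Esrrb, a nuclear receptor, to 0.16 for Cabp4, a calcium-binding protein of the photoreceptor synapse. The rod transcription factor Nrl was at 1498 to 1585 CPM in controls and at 1474 to 1735 CPM in Rbfox2-/- retinas. Without M901 and M902, the medians of the recovery, cone and other rod lists were -0.010, 0.084 and -0.0037, and that of the 9 members was 0.11.

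Levels of markers of other retinal cells are given beside these values, and their part in the result was not tested. The shares over all genes are again 6.42% higher and 6.87% lower at an unadjusted p under 0.05, and 2.8% with DESeq2. Of 7 bipolar markers, 6 had log2 fold changes below 0, 4 of them at an unadjusted p under 0.05, and their summed level was 1552 to 1675 CPM in controls and 1491 to 1570 CPM in Rbfox2-/- retinas. The values ran from -0.19 for Isl1 to 0.19 for Grm6, and with DESeq2, Isl1 and Pcp2 had an FDR under 0.05 (0.00101 and 0.00839). Of 6 Muller glia markers, 3 were below 0, 1 of them at an unadjusted p under 0.05, and the sum was 5038 to 5532 CPM against 4544 to 5061 CPM, the lowest sums being those of M901 and M902. These ran from -0.19 for Apoe to 0.053 for Rlbp1, and with DESeq2, Glul had an FDR under 0.05 (0.0116). The 5 cone markers summed to 808 to 820 CPM in controls and to 861 to 985 CPM in Rbfox2-/- retinas, with no overlap. No single cone marker had groups that were apart, and 1 was higher and 1 lower at an unadjusted p under 0.05. Their values ran from -0.23 for Opn1mw to 0.26 for Opn1sw, the most abundant of the 5. All these bipolar, glial and cone markers were detected in every library. The 8 markers of pigment and ciliary epithelium summed to 67.5 to 142 CPM in controls and to 44.5 to 137 CPM in Rbfox2-/- retinas, with 7 of 8 below 0, and M901 had the lowest sum. Their values ran from -2.02 for Best2 to 0.39 for Ttr. Sums of amacrine, horizontal, ganglion cell, microglial, endothelial, lens and blood markers overlapped between the groups. Log2 fold changes ran from -0.080 (Tfap2a) to 0.035 (Gad1) in the amacrine list, from -0.20 (Onecut2) to 0.18 (Lhx1) in the horizontal list, and from -0.089 (Rbpms) to 0.10 (Pou4f1) in the ganglion cell list. They ran from -0.19 (C1qa) to 0.025 (Tmem119) for microglia, from -0.36 (Cdh5) to 0.017 (Cldn5) for endothelium and from -1.10 (Bfsp2) to 0.66 (Cryaa) for lens, and Alas2, the 1 blood marker tested, had -0.66. Among the rod markers, Nr2e3 was lowest at -0.041 and Sag highest.

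**Figure D5:**
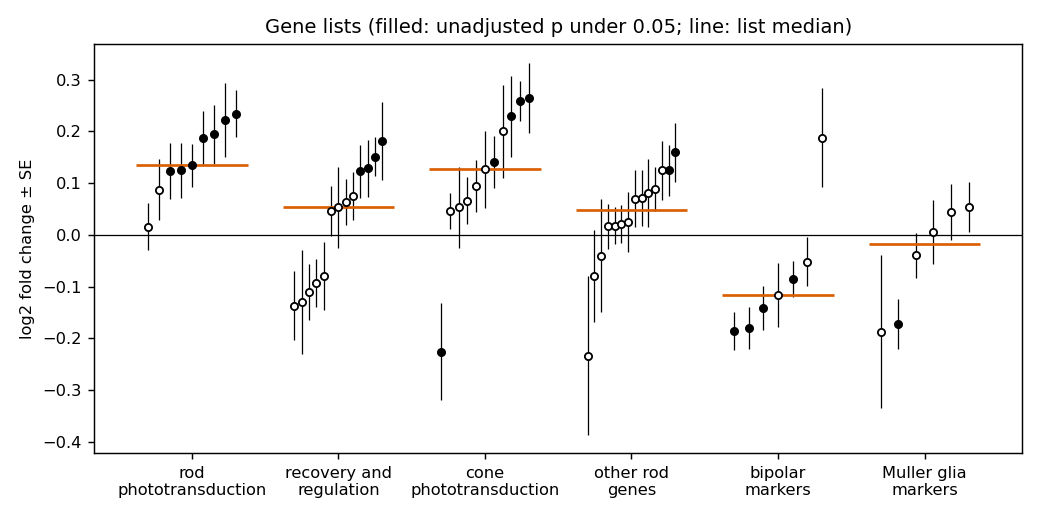
Log2 fold changes with standard errors for the 9 rod phototransduction genes, 3 lists around them and 2 lists of other cell types (filled, unadjusted p under 0.05 by edgeR's quasi-likelihood test). The list medians, drawn as lines, are 0.13, 0.05, 0.13, 0.05, -0.12 and -0.02 from left to right.

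Fold changes were also compared by gene length. The median log2 fold change of all genes was 0.019 in the tenth with the shortest models, which holds Gngt1 and Pde6g. In the tenth of Gnb1, Pde6b and Cnga1 it was 0.0013, and in the longest, which holds Cngb1, it was -0.018. These are medians over whole classes of genes, and any part of length in the members' values was not tested. Over the 8 mice, the genes outside the list whose log2 CPM followed the mean of the 9 members most closely, of 10159 genes at 10 CPM or more, were Elmod2, Nup107, Tmem237, Decr2 and Ahrr, with Pearson correlations of 0.978, 0.977, 0.976, 0.976 and 0.972, given as a description of genes picked as the highest. Elmod2 was at 81.3 to 90.9 CPM in controls and at 92.9 to 104 CPM in Rbfox2-/- retinas. None of the 5 had an FDR under 0.05 by the edgeR test.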

How the data were processed

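The authors aligned paired reads to mm10 with STAR, kept uniquely mapped reads, obtained raw counts per gene with HTSeq and deposited them for 8 retinas, 1 library per mouse. They also deposited FPKM values, used here for levels per length. The submitters' processing notes name CASAVA 1.8.2 and edgeR. The authors' normalized counts and comparisons per mouse (16 columns), and their fold changes, p-values and FDR, were not used. In every row, 4 or more mice reached 5 counts. Where paralogs share sequence, uniquely mapped reads can be lost.

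Counts were filtered with filterByExpr, normalized by TMM and compared with the quasi-likelihood test of edgeR 4.0.16 (R 4.3.3) over all 16797 genes, Benjamini-Hochberg adjusted, without covariates. Standard errors were derived from each gene's F statistic. Ratios were compared by exact permutation over 70 groupings (scipy 1.17.1). The procedure was tested on simulated counts. Alternatives were DESeq2 1.42.0, the likelihood ratio test, limma-voom (limma 3.58.1), RLE, upper-quartile and total-count scaling, other filters, 1 surrogate variable (sva 3.50.0) and leaving out libraries. Depth was 160630226 to 211283591 counts, at which 3 counts are at most 0.0187 CPM, so that the number of mice limits precision. Libraries differed by more than sampling noise, and since each is 1 mouse, p-values measure the spread between mice.

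The members, lists and tests were chosen with earlier results of these data known. All 9 members, the lowest and highest gene of each list and any with an edgeR FDR under 0.05, and the 5 genes most like the members were named. Positions are from GENCODE M21 (GRCm38), which put 14505 of 14517 genes on the chromosome the table gives. Promoter sequences are from RefSeq.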

Additional observations from a re-analysis of the deposited data

Results flagged for a closer look

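Of 32 groups of 4 mice (9 genes and 6 ratios in each group of mice, and the summed share), 1 held a mouse far from the others, by the gap to its nearest neighbour divided by the range, where chance gives about 1.6 (1 in 20). It was M893 for Pde6a, at 3326 CPM, when the other Rbfox2-/- mice were at 3601 to 3652 CPM.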

How the results depend on the processing

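With edgeR's quasi-likelihood test, 0 of the 9 members passed an FDR of 0.05 in the main analysis, against 5 with DESeq2 and 1 with the likelihood ratio test, and the range over single libraries left out was 0 to 0. Over all genes, 11 passed, against 460 with DESeq2, 164 with the likelihood ratio test, 5 with 1 surrogate variable, 1 without M901 and M902, and 5 to 35 without 1 library (35 without M833). At an unadjusted p under 0.05, 7 members were higher, against 2 with 1 surrogate variable, 4 without M901 and M902, and 5 to 8 without 1 library. Over all genes, 2233 lay under this p, against 1083 with 1 surrogate variable, 1027 without M901 and M902, and 1491 to 2992 without 1 library.

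Of the recovery genes, 4 were higher at this p, against 2 with the likelihood ratio test, 0 with 1 surrogate variable, 0 without M901 and M902 and 1 to 5 without 1 library, and 0 were lower, against 3 with DESeq2, 3 with total counts only, 1 with limma-voom, 1 with upper-quartile scaling, 2 with 1 surrogate variable, 2 without M901 and M902 and 0 to 2 without 1 library. Of the cone genes, 4 were higher (4 to 5 without 1 library) and 1 lower, against 0 with 1 surrogate variable, 0 without M901 and M902 and 0 to 1 without 1 library. Of the other rod genes, 2 were higher, against 4 with DESeq2, 4 with limma-voom, 0 with 1 surrogate variable, 0 without M901 and M902 and 0 to 4 without 1 library, and 0 were lower, against 1 with 1 surrogate variable, 1 without M901 and M902 and 0 to 1 without 1 library. The causes were not tested.

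Of the 9 members' log2 fold changes, 8 kept their sign under all 18 alternatives. That of Cnga1 reversed to -0.0013 with total counts only, -0.028 with 1 surrogate variable, -0.030 without M901 and M902, -0.0099 without M894 and -0.015 without M901, and ranged from -0.015 to 0.033 without 1 library. Without 1 library, the members' median ranged from 0.12 to 0.16 and the difference in their summed share from 0.332 to 0.435 percentage points. The log2 ratio of Sag to Gnat1 ranged from -0.032 (without M909) to 0.056, with -0.0028 without M898, that of Gngt1 to Gnat1 from 0.0092 (without M833) to 0.069, and that of Gnb1 to Gnat1 from -0.090 to -0.059. No paired analysis was possible because the labels number the mice individually and the groups share no number. Precision is limited by 4 mice per group rather than by depth.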
